A study of Sus scrofa with 150 samples.

Results

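FN3K, PRDX6 and ABHD14B are 3 genes that were chosen from the array because their liver levels rose with the fat area of the pig. Their members are all probe sets (groups of short probes against 1 transcript) that carry one of these symbols alone. There were 4 such probe sets of 23999, 1 for FN3K, 1 for PRDX6 and 2 for ABHD14B, and 3 genes of 6765 named by the annotation. The values that chose them were the relations to fat area, so everything said here about fat area is a description without a test. The levels of the genes relative to one another, to other transcripts and to drip loss were not used for the choice. Being picked on 1 trait can still make genes correlate, and the correlations are therefore also given after removing fat area.

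Livers were taken at slaughter from 150 commercial crossbred pigs, Pix(DLxDE), at a mean end weight of 110 kg, and each was hybridised to 1 Affymetrix Porcine Genome Array. The labels set no pig apart by treatment, so the 150 make up 1 group. Fat area was measured on the long back muscle (M. longissimus dorsi) at the ribs and ran from 8.1 to 26.7 cm2, with a mean of 15.2 cm2 (SD 3.25, n = 150). Drip loss, the weight that muscle loses on hanging at 4 °C for 48 h, ran from 1.45 to 10.82%, with a mean of 5.54% (SD 2.12, n = 150). Sex, family and array batch are not given by the labels.

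FN3K encodes fructosamine-3-kinase, which phosphorylates sugars that have become attached to lysines of proteins without an enzyme; the product is unstable, and the sugar leaves. PRDX6 encodes peroxiredoxin 6, which reduces peroxides, phospholipid hydroperoxides among them, with glutathione as the electron donor, and which also acts as a phospholipase A2 and in the reacylation of lysophospholipids. ABHD14B encodes a small hydrolase with the alpha/beta fold, for which transfer of an acetyl group from lysine to coenzyme A has been described.

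All 4 probe sets lay well above the floor of the table, which was 4.09 on the log2 scale, in every liver. FN3K ran from 6.75 to 9.17 with a median of 8.31 (SD 0.384, n = 150), in log2 values. PRDX6 ran from 10.65 to 12.80 with a median of 12.26 (SD 0.284, n = 150). The brighter ABHD14B probe set, used as its main one, ran from 8.96 to 10.56 with a median of 9.75 (SD 0.311, n = 150), and the second from 7.01 to 9.25 with a median of 8.17 (SD 0.389, n = 150). These SDs were not unusual for the array, since 19.7% of all probe sets varied more than FN3K, 41.1% more than PRDX6, 33.2% more than ABHD14B and 19.1% more than its second probe set. Levels of different probe sets cannot be set against each other, because probes differ in how well they bind.

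The same 2 pigs were lowest in both FN3K and PRDX6. The first had log2 values of 6.75 for FN3K and 10.65 for PRDX6, and the second 7.35 and 11.32. Their ABHD14B levels were 9.21 and 9.79, the first low and the second above the median. The first of these arrays is 1 of 13 that correlated less well with the other arrays than the rest did (median r over 3 median absolute deviations below that of all arrays); these 13 are called here arrays that stand apart. PRDX6 had a median of 12.00 on them and 12.27 on the others, FN3K 8.13 and 8.33, and ABHD14B 9.63 and 9.75. ABHD14B was highest, at 10.56 and also at 9.25 on its second probe set, in a pig with a fat area of 21.4 cm2.

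The 2 ABHD14B probe sets gave nearly the same order of pigs, with r = 0.870 and Spearman's rho = 0.853 (n = 150). Without the arrays that stand apart r was 0.876. The second probe set also had much the same relation to FN3K (r = 0.481, against 0.562 for the main one) and to PRDX6 (r = 0.288 against 0.255). FN3K and PRDX6 have 1 probe set each, so no such check exists for them.

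The genes beside them in the genome gave a further comparison. In the pig assembly Sscrofa11.1 ABHD14A, another hydrolase of the family, overlaps ABHD14B. Its 2 probe sets correlated with ABHD14B at r = 0.00246 and 0.0306, so no shared variation of the 2 overlapping genes was seen, and PCBP4 on the other side gave r = -0.0201. FN3KRP, the paralog of FN3K that acts on other sugar adducts, lies next to it and correlated with it at r = 0.295 (rho = 0.213). Its r with fat area was 0.0750, against 0.330 for FN3K. TNFSF4, next to PRDX6, correlated with it at r = 0.184. These are descriptions, since neighbouring genes share the array and the RNA sample.

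FN3K varied together with both other genes, and most closely with ABHD14B. The correlation of FN3K and ABHD14B was r = 0.562 (95% interval 0.442 to 0.663, n = 150; permutation p = 1e-05, adjusted over the 3 pairs 1.5e-05), with rho = 0.544 (p = 1e-05, adjusted 3e-05). FN3K and PRDX6 gave r = 0.421 (interval 0.280 to 0.545; permutation p = 1e-05, adjusted 1.5e-05), but rho was only 0.276 (p = 0.0008, adjusted 0.0012). PRDX6 and ABHD14B gave r = 0.255 (interval 0.0991 to 0.399; permutation p = 0.00176, adjusted 0.00176) and rho = 0.236 (p = 0.00384). A p of 1e-05 is the smallest that 100000 permutations can give. These tests compare r with 0, not with other transcripts. Of all probe sets, 0.258% had a higher r with FN3K than ABHD14B did, and 1.95% a higher one than PRDX6 did. For PRDX6, 0.667% exceeded FN3K and 6.90% exceeded ABHD14B. For ABHD14B, 0.0375% exceeded FN3K and 3.45% exceeded PRDX6. The difference between the 3 correlations was not tested.

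**Figure D1:**
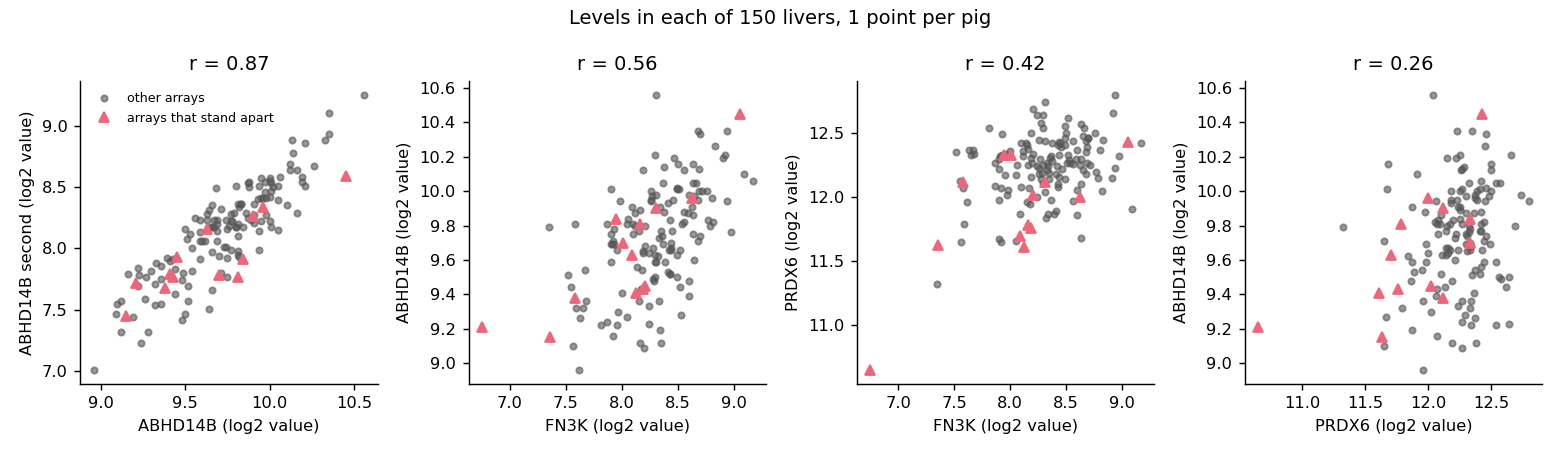
Log2 values of 2 probe sets plotted against each other in each of 150 livers, 1 point per pig; triangles mark the 13 arrays that stand apart. The ABHD14B probe sets lie along a narrow line (r = 0.87), FN3K and ABHD14B form an elongated cloud (r = 0.56), and in the panel of FN3K and PRDX6 (r = 0.42) the same 2 pigs lie far below the rest.

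The r of FN3K and PRDX6 was smaller without the 2 low pigs, at 0.279 (permutation p = 0.00055, adjusted 0.000825) and rho 0.246. Leaving out the 13 arrays that stand apart gave r = 0.292. For FN3K and ABHD14B the values were 0.570 without the 2 pigs and 0.519 without the 13 arrays. PRDX6 and ABHD14B gave 0.235 without the 2 pigs, but 0.166 without the 13 arrays (permutation p = 0.0539, adjusted 0.0539), where the pair no longer passed.

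After fat area was removed from each gene, FN3K still followed ABHD14B, with r = 0.504 (permutation p = 1e-05, adjusted 3e-05), and PRDX6, with r = 0.348 (p = 5e-05, adjusted 7.5e-05). PRDX6 and ABHD14B gave r = 0.153 (interval -0.00790 to 0.305; permutation p = 0.0639, adjusted 0.0639) and did not pass. Of the 3 pairs, then, both that hold FN3K passed with the choosing trait removed.

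The pairs were also computed within 2 kinds of subset of the pigs. The titles carry a number of unstated meaning, and in blocks of 100 such numbers r of FN3K and ABHD14B was positive in 10 of 10 blocks of 6 to 24 pigs, against 9 of 10 for FN3K and PRDX6 and 8 of 10 for PRDX6 and ABHD14B. In that order the lowest r of a block was 0.0688, -0.119 and -0.226, and with block means removed r was 0.543, 0.427 and 0.239. EIF1AY, a Y-linked transcript, was under 5 on the log2 scale in 73 pigs and at least 5 in 77. FN3K and ABHD14B gave r = 0.510 in the 73 and 0.584 in the 77. FN3K and PRDX6 gave 0.226 (permutation p = 0.0527) and 0.518, and the latter group holds both low pigs. PRDX6 and ABHD14B gave 0.296 (p = 0.0120) and 0.172 (p = 0.135). The difference between the groups was not tested.

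**Figure D2:**
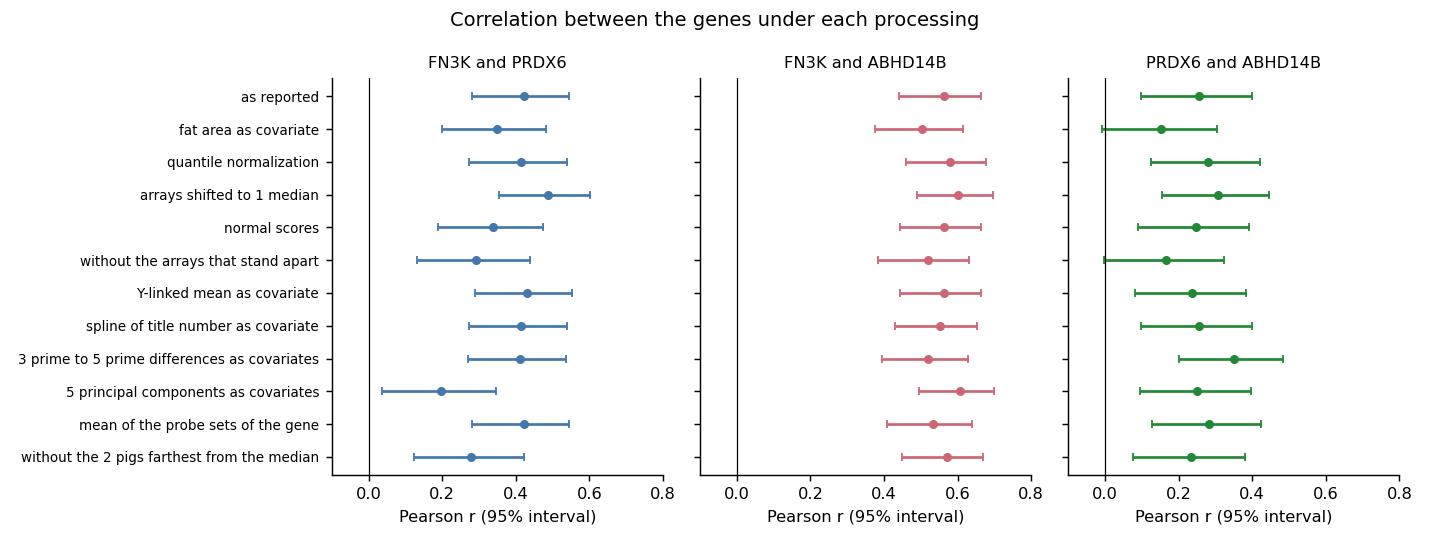
Pearson's r with its 95% interval for each pair of genes, as reported and under 11 other ways of processing the 150 livers. FN3K and ABHD14B lie between 0.504 and 0.607, FN3K and PRDX6 between 0.195 and 0.487, and the interval of PRDX6 and ABHD14B reaches below 0 with fat area as a covariate and without the arrays that stand apart.

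Signs of RNA quality moved with the genes, each in its own way. A larger log2 difference between 3 prime and 5 prime control probe sets is a sign of shorter RNA. FN3K fell with this difference for GAPDH (r = -0.367, permutation p = 1e-05, adjusted 6e-05) and for actin (r = -0.324, p = 8e-05, adjusted 0.00024). PRDX6 fell with that of GAPDH (r = -0.345, p = 3e-05, adjusted 0.000135) but gave r = 0.0804 with that of actin (p = 0.328). ABHD14B fell with that of actin (r = -0.404, p = 1e-05, adjusted 6e-05) and gave -0.155 with GAPDH (p = 0.0575). PRDX6 and FN3K were also higher on arrays that correlated well with the others. PRDX6 gave r = 0.521 (permutation p = 1e-05, adjusted 6e-05; rho = 0.399), or 0.377 without the 2 pigs at the extremes, and FN3K r = 0.327 (p = 8e-05, adjusted 0.00024; rho = 0.224), or 0.163 without them. FN3K was lower on arrays with a higher median (r = -0.247, p = 0.00198). In all, 18 such relations were computed, those with the title number and with Y-linked transcripts included, with p adjusted over them. With both differences as covariates the pairs gave r = 0.521 for FN3K and ABHD14B, 0.412 for FN3K and PRDX6 and 0.351 for PRDX6 and ABHD14B, each at an adjusted p of 1e-05.

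In each gene the median was highest in the fattest pigs. With the pigs ordered by fat area in 5 groups of 30, the medians of FN3K, from the leanest group, were 8.305, 8.275, 8.195, 8.295 and 8.580. Those of PRDX6 were 12.190, 12.180, 12.260, 12.240 and 12.415. Those of ABHD14B were 9.625, 9.810, 9.645, 9.690 and 9.990. The last of each, from pigs of 18.2 to 26.7 cm2, was the highest, while the first 4 showed no steady order in FN3K and ABHD14B. The means of PRDX6 rose over the first 4 groups, from 12.11 to 12.13, 12.21 and 12.22, and single pigs of all groups overlapped.

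**Figure D3:**
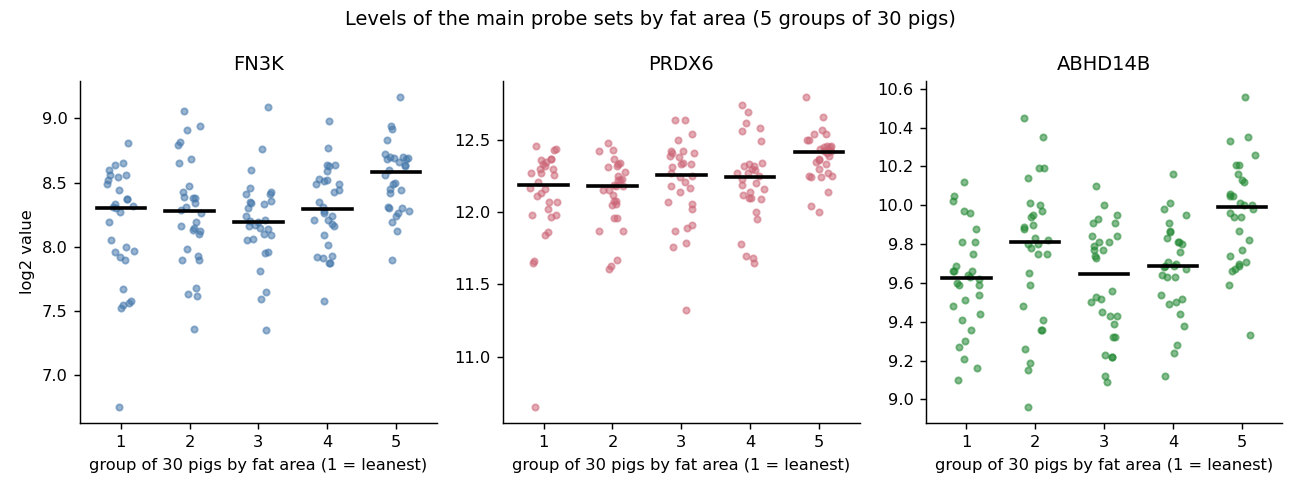
Log2 values of the main probe set of each gene in the 150 pigs ordered by fat area in 5 groups of 30; points are pigs and bars are medians. The bar of the fattest group is the highest in all 3 panels, with values that overlap those of the other pigs, and the bars of groups 1 to 4 span 8.195 to 8.305 for FN3K, 12.180 to 12.260 for PRDX6 and 9.625 to 9.810 for ABHD14B.

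In the 120 pigs of the 4 leaner groups the correlation with fat area was r = 0.153 for FN3K, 0.165 for PRDX6, 0.0701 for ABHD14B and -0.0606 for its second probe set. Over all 150 pigs it was 0.330, 0.342, 0.355 and 0.302. The mean of the 30 fattest pigs exceeded that of the other 120 by 0.30 for FN3K, 0.22 for PRDX6, 0.30 for ABHD14B and 0.38 for its second probe set, in log2 units, which is 1.23-fold, 1.16-fold, 1.23-fold and 1.30-fold. Of the 30 fattest pigs, 21 lay above the median of all pigs in FN3K, 23 in PRDX6 and 22 in ABHD14B. PRDX6 was also less spread in them, with an SD of 0.168 against 0.291 in the others, and so was FN3K, with 0.272 against 0.385. The 2 pigs lowest in both genes are among the others, and 1 of the 13 arrays that stand apart is among the fattest 30. The split at the fattest 30 was looked at after the values had been seen and has no test.

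Against the 30 leanest pigs alone, the fattest 30 were 1.30-fold higher in FN3K (mean log2 value 8.53, SD 0.272, against 8.16, SD 0.455), 1.21-fold in PRDX6 (12.39, SD 0.168, against 12.11, SD 0.352) and 1.27-fold in ABHD14B (9.96, SD 0.264, against 9.62, SD 0.266). The median of the leanest 30 was exceeded by 22, 27 and 28 of the fattest 30. As slopes per SD of fat area these relations were 0.127 (SE 0.0297) for FN3K, 0.0972 (SE 0.0219) for PRDX6, 0.110 (SE 0.0239) for ABHD14B and 0.117 (SE 0.0303) for its second probe set, in log2 units. Over the whole array 19 probe sets, or 0.0792%, were called higher with fat area (limma, Benjamini-Hochberg adjusted p under 0.05), and 3 of the 4 members are among them, which is how they were chosen. With arrays shifted to 1 median only PRDX6 and the main ABHD14B probe set were among the calls.

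**Figure D4:**
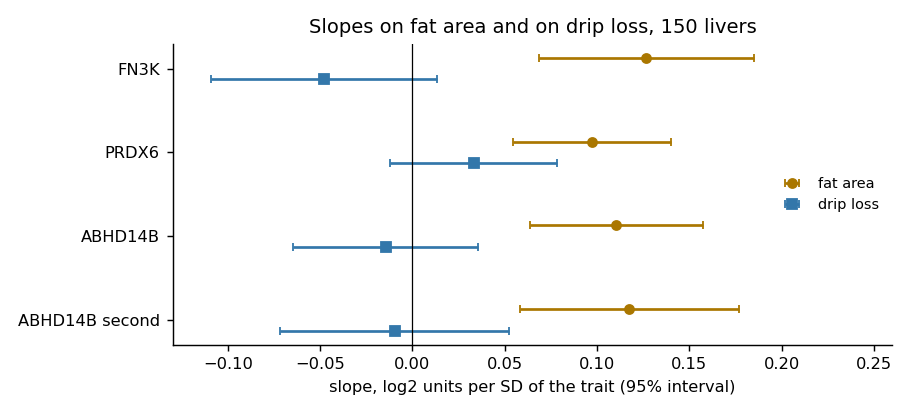
Slopes of the 4 probe sets on fat area (circles) and on drip loss (squares) with 95% intervals, in log2 units per SD of the trait, 150 livers. The slopes on fat area, which chose the genes, lie between 0.0972 and 0.127, and those on drip loss between -0.0480 and 0.0332 with intervals that include 0.

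The 3 genes overlapped in what they shared with fat area. Together they held 19.9% of its variance, against 10.9% for FN3K, 11.7% for PRDX6 and 12.6% for ABHD14B alone. With the other 2 genes removed, r with fat area was 0.0802 for FN3K, 0.237 for PRDX6 and 0.217 for ABHD14B. FN3K thus shared little with the trait beyond what PRDX6 and ABHD14B shared with it. The 28 pigs that lay above the median in none of the genes had a mean fat area of 13.5 cm2 (SD 2.62), the 52 above it in 1 gene 15.0 cm2 (SD 2.99), the 41 above it in 2 genes 15.4 cm2 (SD 2.62), and the 29 above it in all 3 genes 17.2 cm2 (SD 4.03).

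Fat area itself moved with the Y-linked transcript. It averaged 13.8 cm2 (SD 2.84) in the 73 pigs with EIF1AY under 5 and 16.6 cm2 (SD 3.06) in the other 77, and 26 of the 30 fattest pigs were among the 77, against 7 of the 30 leanest. PRDX6 had a median of 12.15 in the 73 and 12.33 in the 77, FN3K 8.26 and 8.38, and ABHD14B 9.70 and 9.81. With the mean level of 2 Y-linked probe sets only PRDX6 passed (r = 0.251, permutation p = 0.00131, adjusted over 18 relations 0.00337). FN3K gave r = 0.0219 (p = 0.790) and ABHD14B 0.106 (p = 0.198). Within the 73 pigs r with fat area was 0.207 for FN3K, 0.241 for PRDX6 and 0.244 for ABHD14B, and within the 77 it was 0.379, 0.238 and 0.390. With the mean Y-linked level removed, r was 0.346, 0.278 and 0.342, and only 1 probe set of the array was called with fat area, against 30 in both directions without it; none of the 4 members was that probe set. The part of the Y-linked difference in these relations was not tested further.

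Drip loss, which did not enter the choice, showed no called relation to any of the genes. The slopes were -0.0480 log2 units per SD of drip loss for FN3K (SE 0.0311, limma adjusted p = 0.552), 0.0332 for PRDX6 (SE 0.0231, adjusted p = 0.576), -0.0146 for ABHD14B (SE 0.0255, adjusted p = 0.846) and -0.0097 for its second probe set (SE 0.0317, adjusted p = 0.925). Their 95% intervals ran from -0.109 to 0.0131, from -0.0121 to 0.0784, from -0.0645 to 0.0354 and from -0.0719 to 0.0525. In limma 0 of 23999 probe sets, or 0%, were called with drip loss, with 2638 at an unadjusted p under 0.05.

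By r, FN3K came nearest to a relation with drip loss, and by rho PRDX6 did. PRDX6 gave r = 0.117 (permutation p = 0.158, adjusted over the 4 probe sets 0.316) and rho = 0.171 (p = 0.0380, adjusted 0.152), so neither passed. The 30 pigs with the highest drip loss had a mean PRDX6 value of 12.31 (SD 0.254) against 12.15 (SD 0.196) in the 30 with the lowest, a 1.12-fold difference, and 24 of the former lay above the median of the latter. FN3K gave r = -0.125 (permutation p = 0.130, adjusted 0.316) and ABHD14B r = -0.0467 (p = 0.571, adjusted 0.761).

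FN3K and PRDX6 each went with a large part of the transcripts on the array, and ABHD14B with fewer. In the limma fit 7735 probe sets, or 32.2%, were called with FN3K (3124 higher, 4611 lower), 7041 or 29.3% with PRDX6 (2969 higher, 4072 lower) and 2032 or 8.47% with ABHD14B (1070 higher, 962 lower). Of those called with ABHD14B, 58.4% were called in the same direction with FN3K, and they made up 15.3% of the FN3K calls. FN3K and PRDX6 shared 4156 calls in the same direction, or 53.7% and 59.03% of each. PRDX6 and ABHD14B shared 510 in the same direction, or 7.24% and 25.1%. With all 3 genes 302 probe sets were called higher, or 1.26%, and 154 lower, or 0.642%. The scaling of the arrays shifts these splits: with arrays shifted to 1 median 62.3% of the FN3K calls, 62.4% of the PRDX6 calls and 73.5% of the ABHD14B calls were higher, against 40.4%, 42.2% and 52.7% as deposited, and with quantile normalization 54.9%, 52.96% and 53.5%. Without the arrays that stand apart the PRDX6 calls numbered 2059, the FN3K calls 5178 and the ABHD14B calls 2364.

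Among probe sets with a gene symbol the one most like FN3K was that of HAGH, with r = 0.689 and rho = 0.692 (adjusted p = 1.71e-17); over all probe sets, those without a symbol included, the highest r with FN3K was 0.750. HAGH is hydroxyacylglutathione hydrolase, the glyoxalase that finishes the removal of methylglyoxal, a reactive carbonyl that also modifies proteins. The second HAGH probe set, which is brighter, gave only r = 0.217, so the probe sets of that gene disagree. Next came IDH3G, a subunit of mitochondrial isocitrate dehydrogenase (r = 0.677), ALAD of haem synthesis (0.667), LIMS2 (0.657), LHPP (0.654), MPND (0.651), MACROD1, which removes ADP-ribose from proteins (0.637), FXYD7 (0.635), GCAT of threonine breakdown (0.632) and SUOX, sulfite oxidase (0.627). All 10 were also called higher with PRDX6 and with ABHD14B. Their r with FN3K, without the arrays that stand apart, ran from 0.532 to 0.694, and with fat area removed from 0.610 to 0.688. The 5 most opposite to FN3K were ATP2A2, the calcium pump of the endoplasmic reticulum (r = -0.572), C14H10orf99 (-0.559), NIFK of the nucleolus (-0.550), PDRG1 (-0.546) and SNX10 (-0.541). Of the other 3 ATP2A2 probe sets, 2 gave -0.497 and -0.414 and the brightest 0.00639.

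Among named genes PRDX6 was most like HADH and MAOB. HADH, which carries out a step of fatty acid oxidation, gave r = 0.771 and rho = 0.637 (adjusted p = 2.51e-25), and MAOB, a monoamine oxidase of the outer membrane, gave 0.705 and 0.514. FDX1, an electron carrier, followed (r = 0.637), then ECI1, an enoyl-CoA isomerase of fatty acid oxidation (0.633), NCALD (0.603), IVD of leucine breakdown (0.599), SUOX (0.584), MGST3, a microsomal glutathione transferase (0.581), MPND (0.555) and DNASE1 (0.554). The rank correlations of these 10 were lower than r, from 0.376 to 0.637, and without the arrays that stand apart r ran from 0.351 to 0.673. All 4 IVD probe sets followed PRDX6, at r from 0.502 to 0.599, while those of NCALD did not agree (0.603, 0.121, 0.0702 and -0.290). A dimmer FDX1 probe set gave only 0.212. Of the 10, 6 were also called higher with ABHD14B. The 5 most opposite were RRBP1, the ribosome receptor of the endoplasmic reticulum (r = -0.558), NUCB2 (-0.542), PDIA4, which folds secretory proteins (-0.515), CNOT2 (-0.513) and GNG10 (-0.512). None of these 5 was called with ABHD14B, and RRBP1 gave r = -0.000229 with it.

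ABHD14B was most like HPD, an enzyme of tyrosine breakdown (r = 0.594, rho = 0.591, adjusted p = 1e-11), and CHDH, choline dehydrogenase (r = 0.594, rho = 0.578). They were followed by TM7SF2 of cholesterol synthesis (0.570), the lysosomal protease CTSD (0.567), ALDH4A1 of proline breakdown (0.566) and then FN3K itself (0.562), the 6th of 6764 genes. In the other direction ABHD14B was the 44th gene for FN3K. FBLN1 (0.558), GCDH of lysine breakdown (0.554), IGFALS, the hepatic carrier subunit for insulin-like growth factors (0.535), and SLC9A3R2 (0.524) complete the 10. Their r hardly depended on the arrays that stand apart, running from 0.509 to 0.628 without them. It did depend on the probe set where a gene had others. A brighter ALDH4A1 probe set gave r = 0.360 with ABHD14B, those left of CHDH 0.541 and 0.189, and a dimmer one of IGFALS 0.0472. Several of the 10 were not shared with PRDX6: HPD gave r = 0.138 with it (adjusted p = 0.195), CHDH 0.128 (0.236) and CTSD -0.0579 (0.642). The 5 most opposite to ABHD14B were JMJD6 (r = -0.483), ASIP, the agouti signalling protein (-0.470), KDELR3, a retrieval receptor of the secretory pathway (-0.445), CRELD2 (-0.442) and DDX39A (-0.439).

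**Figure D5:**
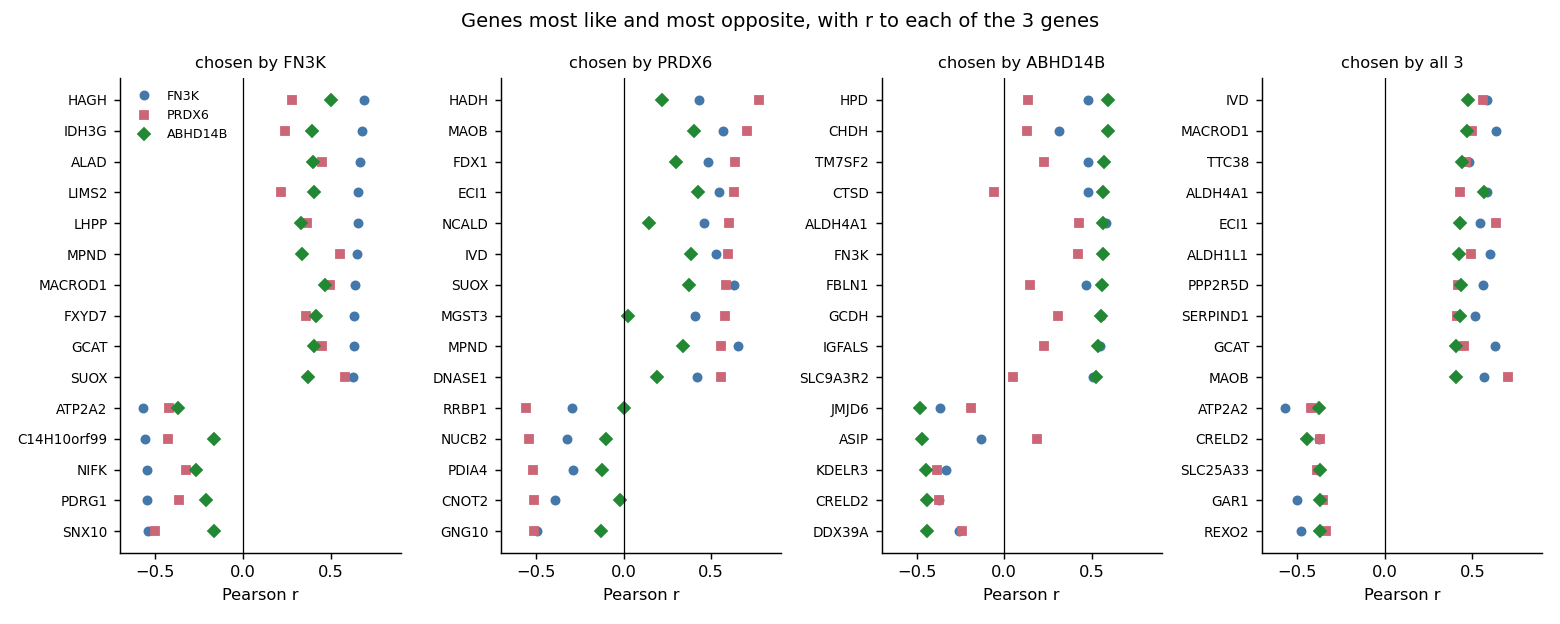
Pearson's r of the genes most like and most opposite to FN3K, PRDX6, ABHD14B or all 3, with the r to each of the 3 genes as circles, squares and diamonds, 150 livers. The genes chosen by FN3K lie at 0.627 to 0.689 for it, those chosen by PRDX6 at 0.554 to 0.771, and those chosen by ABHD14B at 0.524 to 0.594 for it and at -0.0579 to 0.427 for PRDX6.

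The genes that followed all 3 were ranked by the lowest of their 3 r values. IVD came first, by another of its probe sets, with r = 0.585 to FN3K, 0.561 to PRDX6 and 0.475 to ABHD14B. MACROD1 gave 0.637, 0.498 and 0.468, but its r with PRDX6 was 0.234 without the arrays that stand apart. TTC38 gave 0.482, 0.464 and 0.440, ALDH4A1 0.582, 0.427 and 0.566, ECI1 0.545, 0.633 and 0.427, and ALDH1L1, a folate enzyme, 0.599, 0.493 and 0.423. PPP2R5D, SERPIND1 (heparin cofactor), GCAT and MAOB were the others of the 10, none with an r under 0.404 to any of the 3. The 5 most opposite were ATP2A2 (-0.572, -0.422 and -0.373), CRELD2 (-0.374, -0.372 and -0.442), SLC25A33, a mitochondrial nucleotide carrier, GAR1 of small nucleolar particles and REXO2, a ribonuclease. All 15 were called with each gene, as the rule for naming them makes likely.

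The lists that follow hold 82 genes named by rule, of which 56 were called with FN3K, 41 with PRDX6 and 26 with ABHD14B. The rule takes the genes of each list with the largest mean r in size, which makes such calls likely. Over all genes 20.9% were called higher and 20.3% lower with FN3K, 15.3% and 17.8% with PRDX6, and 6.76% and 5.46% with ABHD14B. Without the arrays that stand apart 46, 17 and 18 of the calls among the 82 held, so most of those with PRDX6 did not. With fat area removed 54, 34 and 20 held.

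Amino acid breakdown and the urea cycle is the list with the most genes called higher with each of the 3 genes, and also the longest. Of its 22 measured genes, 12 were called higher and 1 lower with FN3K, 16 higher and 0 lower with PRDX6, and 11 higher and 0 lower with ABHD14B (limma). Over all 6764 other genes the shares called higher were 20.9%, 15.3% and 6.76%, and those called lower 20.3%, 17.8% and 5.46%. The median r of the list was 0.253, 0.270 and 0.230, against 0.00283, -0.000412 and -0.00344 over all genes. With FN3K the lysine deacetylases had a higher median, 0.263. FAH of tyrosine breakdown gave r = 0.578, 0.267 and 0.517, AMT of glycine cleavage 0.501, 0.493 and 0.362, BCKDHB of branched-chain breakdown 0.378, 0.548 and 0.379, and MAT1A, which makes S-adenosylmethionine, 0.423, 0.442 and 0.382. Without the arrays that stand apart 10, 14 and 9 were called higher, with the RNA quality covariates 13, 17 and 11, and with fat area removed 11, 12 and 6. This list was known to move with fat area in these livers and is not independent support.

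Within its own family, PRDX6 went with some peroxiredoxins and not with others. Of 5 measured, PRDX2 (r = 0.375), PRDX3 of mitochondria (0.396) and PRDX5 (0.240) were called higher with PRDX6, and 0 were called lower. PRDX4 of the endoplasmic reticulum gave -0.0983 (adjusted p = 0.388). PRDX2 and PRDX5 were also called higher with FN3K (0.360 and 0.314), and with ABHD14B the 5 gave r from -0.183 to 0.00729, with none called. Leaving out the arrays that stand apart, 2 were called with PRDX6 and PRDX5 with neither PRDX6 (0.157) nor FN3K (0.214), and with the RNA quality covariates 1 was called higher and 1 lower. The shares called over all genes were 15.3% higher and 17.8% lower with PRDX6, 20.9% and 20.3% with FN3K, and 6.76% and 5.46% with ABHD14B. Among 16 other antioxidant enzymes, 7 were called higher and 1 lower with PRDX6, 5 higher and 3 lower with FN3K, and 2 higher with ABHD14B. The glutathione peroxidases GPX1 (r = 0.247), GPX3 (0.279) and GPX4 (0.226) were among the 7, but only 2 of the 16 were called higher with PRDX6 without the arrays that stand apart. Of 14 targets of NRF2, the regulator of the oxidative response, 5 were called higher with PRDX6, 6 with FN3K and 2 with ABHD14B, and 1, 1 and 0 lower; without the arrays that stand apart 1 of the 14 was called higher with PRDX6, 6 with FN3K and 1 with ABHD14B. In 11 genes of phospholipid remodelling, the other activity of PRDX6, 1 was called higher with it (CHPT1, r = 0.293) and 2 lower, and none without the arrays that stand apart, where CHPT1 gave 0.187.

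Around FN3K, 6 of 9 measured genes of glycation repair and reactive carbonyls were called higher and 0 lower, which included AKR1A1 (r = 0.467), AKR7A2 (0.421) and PARK7 (0.383). Across all genes 20.9% were called higher with FN3K, 15.3% with PRDX6 and 6.76% with ABHD14B. With PRDX6 4 of the 9 were called higher, but 0 without the arrays that stand apart, and with ABHD14B the 9 gave r from -0.12 to 0.196, with none called. Of 7 genes of fructose and polyol metabolism, 3 were called higher with FN3K: KHK, the kinase that starts fructose breakdown (0.471), GLYCTK (0.465) and TKFC (0.351). GLYCTK (0.346) and TKFC (0.282) were the 2 called higher with ABHD14B. With PRDX6 4 of the 7 were called higher, FBP1 of gluconeogenesis (0.414) and KHK (0.213) among them. Without the arrays that stand apart 2 were called higher with PRDX6, and KHK was not (0.0557).

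Around ABHD14B, 3 of 10 measured relatives with the alpha/beta fold were called higher and 1 lower, against 6.76% and 5.46% of all genes. BPHL gave r = 0.394 and EPHX2, a soluble epoxide hydrolase, 0.259, and both were also called higher with FN3K (0.476 and 0.328) and PRDX6 (0.435 and 0.478). ABHD5, the activator of the adipose triglyceride lipase, was called lower with all 3 (-0.271 with ABHD14B, -0.381 with FN3K and -0.239 with PRDX6). With fat area removed it was called with FN3K alone (r = -0.222 with ABHD14B and -0.190 with PRDX6), and the call with PRDX6 was also lost without the arrays that stand apart (-0.192). There BPHL was no longer called with PRDX6 (0.240), nor EPHX2 with FN3K (0.202) or ABHD14B (0.166). Of 10 lysine deacetylases, 2 were called higher with ABHD14B, SIRT2 (0.294) and HDAC5 (0.419). With FN3K 6 were called higher and 2 lower, against 20.9% and 20.3% of all genes. SIRT2 gave r = 0.572 with FN3K, and its call with ABHD14B was lost without the arrays that stand apart (0.193).

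Single genes of the amino acid response under ATF4 went in both directions. PHGDH and PSAT1 of serine synthesis were called higher with PRDX6 (r = 0.478 and 0.472) and FN3K (0.436 and 0.227), and ATF4 itself was called lower with all 3 (-0.299 with FN3K, -0.200 with PRDX6 and -0.294 with ABHD14B). Of 12 measured, 2 were called higher and 3 lower with FN3K, 2 and 1 with PRDX6, and 0 and 3 with ABHD14B. In the same order the shares over all genes were 20.9% and 20.3%, 15.3% and 17.8%, and 6.76% and 5.46%. The counts with FN3K and PRDX6 are near those shares, and the median r of the 12 was -0.0764, 0.00295 and -0.0218. With fat area removed ATF4 was called with FN3K alone (r = -0.125 with PRDX6 and -0.226 with ABHD14B), and without the arrays that stand apart PSAT1 was not called with FN3K (0.0511); with fat area removed none of the 12 was called with ABHD14B. Among 7 clock genes 2 were called higher and 2 lower with FN3K, 1 and 1 with PRDX6, and 1 and 1 with ABHD14B. The shares over all genes are those given above, and the median r of the 7 was -0.0162, -0.024 and -0.00663. DBP, a clock output factor, was called higher with all 3 (0.506, 0.404 and 0.363). The clock gene ARNTL was called lower with all 3 (-0.247, -0.199 and -0.255). ARNTL was, without the arrays that stand apart, called with none of the 3 (-0.175, -0.164 and -0.218; adjusted p = 0.124, 0.200 and 0.0770), and with fat area removed with FN3K alone. Slaughter times are not given.

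Markers of hepatocytes and of other cells that a liver sample can hold gave part of each list called. All 15 hepatocyte markers had a median above 5 on the log2 scale, their mean level running from 13.02 to 13.45 across pigs, and the tissue label holds by them. For each count of markers the shares over all genes were 20.9% higher and 20.3% lower with FN3K, 15.3% and 17.8% with PRDX6, and 6.76% and 5.46% with ABHD14B. Of the hepatocyte markers 3 were called higher and 3 lower with FN3K and 2 and 3 with PRDX6, which is near those shares. With ABHD14B 2 were called higher and 0 lower. APOA2 and TTR were higher with each gene, and the fibrinogen chains FGB and FGG were lower with FN3K and PRDX6. Of these, APOA2 was called with PRDX6 alone without the arrays that stand apart, TTR, FGB and FGG with FN3K alone. With arrays shifted to 1 median 11 of the 15 were called higher with FN3K and 11 with PRDX6, so this split depends on the scaling. Of 8 macrophage markers 1 was called higher and 1 lower with FN3K, and CD163 was lower with PRDX6. Of 8 endothelial markers 3 were called higher and 1 lower with FN3K, 0 and 2 with PRDX6, and 1 and 0 with ABHD14B. Of 9 stellate and fibroblast markers 3 were called higher with PRDX6, COL1A2 (0.294), DES (0.315) and RGS5 (0.210) among those named, and 0 with the other genes; DES gave 0.0822 without the arrays that stand apart. The 5 bile duct markers gave 1, 0 and 1 higher, the 4 red blood cell markers 3, 1 and 0 higher with 1 lower for FN3K, and the 5 neutrophil markers 0, 1 and 0 higher and 1, 0 and 1 lower. Of 7 T and NK cell markers 1 was called higher and 1 lower with each gene, CD2 being lower with PRDX6 (-0.460). Of 8 skeletal muscle markers, 5 with a median under 5, 4 were called higher with PRDX6, 1 higher with FN3K and 1 lower with ABHD14B. Without the arrays that stand apart 1 of these 8 was called higher with PRDX6, and with the RNA quality covariates 0 were. Of 6 adipocyte markers 2 were called lower with FN3K and 2 with ABHD14B. All 6 adipocyte markers, 2 with a median under 5, had a negative r with ABHD14B, from -0.345 to -0.132. They were also negative with FN3K, from -0.315 to -0.000608. With ABHD14B 3 were called lower with fat area removed, but 1 with arrays shifted to 1 median and 1 with quantile normalization. All 4 red blood cell markers had a positive r with ABHD14B, from 0.103 to 0.184, with none called. The mean adipocyte level ran from 4.94 to 5.47 in the fattest 30 pigs and from 4.93 to 5.40 in the leanest 30, and the mean hepatocyte level from 13.14 to 13.38 and from 13.06 to 13.39. In bulk liver, fewer cells of a type and less RNA per cell cannot be told apart, and the part of these markers in the results was not tested.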

How the data were processed

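The series table deposited by the authors was read as log2 values because of their range. GCOS 1.1.1 (scanner software) is named in the submitters' processing notes; how probes were summarised and how arrays were normalized is not stated there. The table's floor of 4.09 holds 2.75% of the values, and array medians ran from 5.79 to 6.09. No arrays were copies of another (highest r 0.989). The number of arrays limits the precision.

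After 124 control probe sets were left out, 23999 remained. Symbols came from the array annotation: 10069 probe sets had 1 symbol, of which 9961 were matched by Entrez ID to Sscrofa11.1, and none with several symbols named a member. The probe set with the highest median is the main one of a gene. No coordinates are given, since the files name no build.

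Slopes of all probe sets on each trait and on each member's level were fitted with limma 3.58.1 (lmFit, eBayes with trend; R 4.3.3), with no covariate. The threshold for a call was an adjusted p (Benjamini-Hochberg) of 0.05. Correlations between members had two-sided permutation tests of 100000 resamples. The p-values weigh a slope or a correlation against 0, given the variation between pigs. The 5 principal components, spline of the title number (5 df), array scaling and other alternatives are given at the end. The fit was tested on simulated data: for drip loss it recovered 53% of 200 probe sets simulated at a correlation of 0.3 and 96% at 0.4, among 23999. The simulated probe sets varied independently of one another and 200 of them followed the trait, so these shares need not hold for the real arrays.

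Named genes are, per member, the 10 with the highest and 5 with the lowest r, 1 probe set per gene; for all 3 members the 10 with the highest lowest r and the 5 with the lowest highest r; and up to 4 genes of each list with the largest mean r in size. Genes of a list count once, by their brightest probe set. The members, lists and rules were chosen with earlier results of these data known.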

Additional observations from a re-analysis of the deposited data

How the results depend on the processing

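The alternatives were quantile normalization, arrays shifted to 1 median, normal scores, leaving out the 13 arrays that stand apart, covariates (the Y-linked mean, a spline of the title number, the 3 prime to 5 prime differences, 5 principal components, fat area), the mean of a gene's probe sets, a filter on dim probe sets, leaving out 2 pigs and other eBayes settings. All 41 alternative slopes on fat area, the trait that chose the genes, stayed positive and within the 95% interval of the reported slope. The filter on dim probe sets and the other eBayes settings cannot change a slope, so those alternatives equal the reported slopes on both traits. Of the 4 members, 3 were called with fat area as reported, 2 with arrays shifted to 1 median, 0 with the Y-linked mean removed, and 3 or 4 in the 8 other fits. Of 45 slopes on drip loss none passed, with adjusted p values from 0.392 to 0.997, and 2 changed sign, both with the 3 prime to 5 prime differences as covariates: ABHD14B gave 0.0174 and its second probe set 0.0433. Of 33 alternative correlations between the genes 31 kept their sign and their side of the threshold. PRDX6 and ABHD14B did not pass with fat area as a covariate (r = 0.153) or without the arrays that stand apart (r = 0.166). The mean of a gene's probe sets could not change FN3K and PRDX6, which have 1 probe set each. The rank correlation of FN3K and PRDX6 with 5 principal components was 0.130 (permutation p = 0.113). Counts of called probe sets moved most. With arrays shifted to 1 median they were 12044 for FN3K, 12438 for PRDX6 and 1304 for all 3 together (456 as reported). With the 3 prime to 5 prime differences they were 4392 for FN3K and 2736 for PRDX6, and with 5 principal components 4829 for FN3K, 591 for PRDX6, 4379 for ABHD14B and 164 for all 3. Without the arrays that stand apart PRDX6 had 2059, and with fat area as a covariate all 3 had 252. The cause of these shifts was not tested. No paired analysis was possible because all pigs form 1 group. The dim end of the table is limited by its floor, which no member reached.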
